A study of Caenorhabditis elegans with 2 samples.

Results

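The subject is the set of genes that encode subunits of the 26S proteasome in *Caenorhabditis elegans*, and where the protein ATTF-5 was found at their promoters. Members were taken by gene symbol (pas, pbs, rpt or rpn followed by a number) from the protein-coding genes of Ensembl release 115, which gave 33 of 19973 nuclear genes. Of these, 14 encode the core particle and 19 the regulatory particle. The symbol rule itself uses no measured value, but the gene set was proposed with earlier results of these data known.

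ATTF-5 carries the name of an AT-hook transcription factor. It was mapped by chromatin immunoprecipitation and sequencing (ChIP-seq) in strain OP724, whose animals have the allele unc-119(tm4063) and an integrated transgene, wgIs724, that holds attf-5 fused to TY1, EGFP and 3xFLAG together with a rescuing unc-119(+). Both replicates, numbered 1 and 3, were whole young adults of pooled sexes aged 66 hours, synchronised by starving L1 larvae after bleaching, and both were precipitated with an antibody to GFP. The tag thus reports a transgene in 1 stable line, and no untagged animals were compared. There was 1 group, so conditions were not compared. As whole animals were used, binding in more cells and stronger binding in each cell cannot be told apart.

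The proteasome degrades proteins that carry ubiquitin chains. Its core particle is a barrel of stacked rings: alpha subunits (pas genes) form the gated outer rings and beta subunits (pbs genes) the inner rings, where the proteolytic sites lie. The regulatory particle caps the barrel. Its base holds the AAA ATPases (rpt genes) that unfold substrates, with scaffold subunits and ubiquitin receptors, and its lid holds the deubiquitinase RPN-11 and its scaffold partners. In *C. elegans* the transcription factor SKN-1A is known to raise proteasome gene expression when proteasome function is impaired.

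The measurements are the authors' regions in ce11 coordinates (the same assembly as WBcel235), each with a summit and a signal value in the authors' scale. The pooled list held 30000 regions, replicate 1 held 30000 and replicate 3 held 28299; the labels call these lists peaks and background. The thresholded list held 3331 regions. These were exactly the 3331 strongest of the pooled list, with signals from 89.6 upward, so a thresholded peak here means a pooled signal of at least that value. Pooled signals at the members' peaks were 0.934 to 1.10 times the sum of the replicates' signals (median 1.00 over all promoter peaks), so a pooled value is not to be read against a replicate's value. Read depth is not given in the sources used here.

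A thresholded summit lay in the promoter window, from 1000 bp upstream to 200 bp downstream of the gene's 5′ end, at 16 of the 33 proteasome genes (48.5%). The same window held a summit at 12.3% of all protein-coding genes. The core particle had 8 of 14 genes with a peak (57.1%) and the regulatory particle 8 of 19 (42.1%). Within the core, 4 of 7 alpha and 4 of 7 beta genes had one. Within the regulatory particle, 4 of 10 base genes and 4 of 9 lid genes had one, with 2 of 6 ATPases. All of these shares were above the background, and the difference between core and regulatory particle was not tested.

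**Figure D1:**
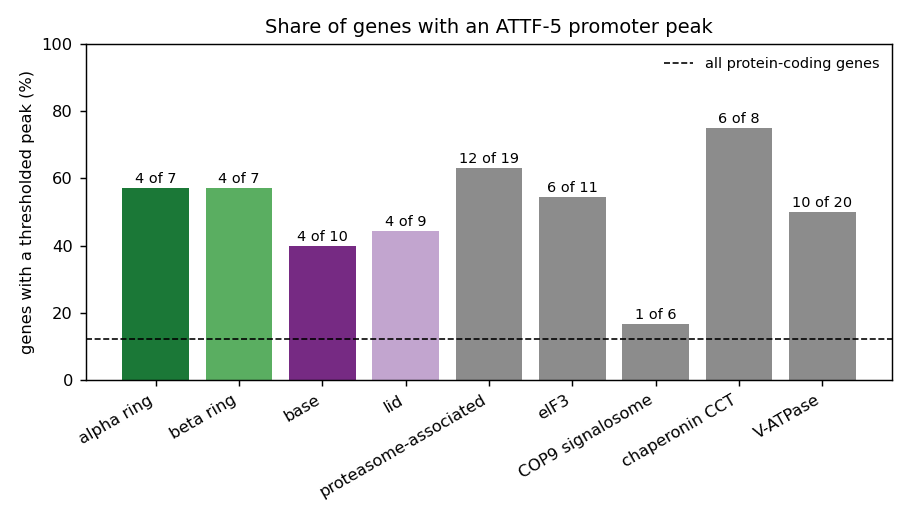
Bars show the percent of genes with a thresholded ATTF-5 summit in the promoter window, with counts above, for the proteasome (coloured) and the other gene groups described later (grey); the dashed line is the 12.3% of all protein-coding genes. All 4 subcomplexes of the proteasome lie above the line, between 40% and 57.1%.

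Signals at the members' peaks ran from 95.3 to 462.5 with a median of 184.5, against a median of 156.4 for the 1891 promoter peaks. Of the 16, 10 lay above that median, where by definition 50% of promoter peaks lie. The median member stood at the 60.5th percentile of promoter peaks, and the highest, rpn-9, at percentile 94.3. Peaks were thus more frequent at proteasome genes than at all genes, with signals near the middle of promoter peaks. Counting peaks above 142.7 alone, the median of the whole thresholded list, 11 of 33 members had one, against 7.43% of all genes. The core peaks had a median of 182.4 (95.3 to 256.9) and the regulatory peaks 204.8 (112.4 to 462.5), so the ranges overlapped.

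In the lid, rpn-9, which encodes a scaffold subunit, had the highest signal of all members. Its peak (chrII:11238996-11239330) had a pooled signal of 462.5, with 247.2 in replicate 1 and 214.6 in replicate 3. By rank it stood at 131 among pooled regions, 123 in replicate 1 and 150 in replicate 3, so both replicates placed it alike. For rpn-11, the gene of the deubiquitinase that removes ubiquitin chains, the signal was 277.0 pooled, 130.7 in replicate 1 and 146.8 in replicate 3, with the summit at -1 bp from the annotated 5′ end (chrII:4044425-4044663). The lid scaffold gene rpn-3 had 262.1 pooled, 141.9 in replicate 1 and 128.7 in replicate 3 (chrIII:8446982-8447303). These lid peaks were close in both replicates. The fourth lid peak, at rpn-12 (chrII:11652739-11653162), had 112.4 pooled but 35.4 in replicate 1 and 78.6 in replicate 3. Its log2 ratio of replicate 1 to replicate 3 was -1.15, the most uneven of the 16, and the gene had no peak among the 3331 strongest regions of replicate 1.

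In the base, 2 ATPase genes had peaks. At rpt-2 (chrV:6017612-6018035) the signal was 232.6 pooled, 118.5 in replicate 1 and 113.6 in replicate 3. At rpt-1 (chrV:11982448-11982578) it was 177.0 pooled, 106.7 in replicate 1 and 66.2 in replicate 3, a log2 ratio of 0.69. The scaffold gene rpn-2 had 146.5 pooled, 74.3 in replicate 1 and 82.5 in replicate 3 (chrIII:6198638-6199061). The ubiquitin receptor gene rpn-13 followed with 139.5 pooled, 76.9 in replicate 1 and 61.04 in replicate 3 (chrIII:6342043-6342466). The base peaks thus lay within a narrower range, 139.5 to 232.6, than the lid peaks.

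In the beta ring, 3 of the 4 peaks were of like strength. The gene of the catalytic subunit pbs-2, whose site has trypsin-like activity, had 256.9 pooled, 138.7 in replicate 1 and 114.7 in replicate 3 (chrI:12968528-12968722). The noncatalytic pbs-3 had 239.9 pooled, 124.4 in replicate 1 and 114.4 in replicate 3 (chrII:4955492-4955674). For pbs-7, also noncatalytic, the values were 227.2, 111.8 and 111.9 in the same order (chrI:8696352-8696531). The catalytic pbs-1, with caspase-like activity, was weaker, at 100.5 pooled, 59.9 in replicate 1 and 41.1 in replicate 3 (chrIV:1709752-1710175). It had no peak among the 3331 strongest regions of replicate 3. The remaining catalytic gene, pbs-5, which encodes the chymotrypsin-like subunit, had no thresholded peak.

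In the alpha ring, pas-3 had a signal of 192.1 pooled, 80.1 in replicate 1 and 107.5 in replicate 3 (chrI:5106088-5106274). For pas-4 the values were 172.7, 79.8 and 93.0 (chrI:8728534-8728703). The gene pas-5 was the sole member with 2 thresholded summits, of 137.0 at -319 bp and 94.6 at -956 bp; the stronger had 63.4 in replicate 1 and 74.1 in replicate 3. These 3 were each lower in replicate 1 than in replicate 3. The weakest member peak of all was that of pas-1, with 95.3 pooled, 54.7 in replicate 1 and 31.9 in replicate 3 (chrV:14423195-14423618). It lay at -789 bp from pas-1 and 103 bp from the 5′ end of rpoa-12, the gene before it on the same strand, and it was lost among the strongest regions of replicate 3.

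**Figure D2:**
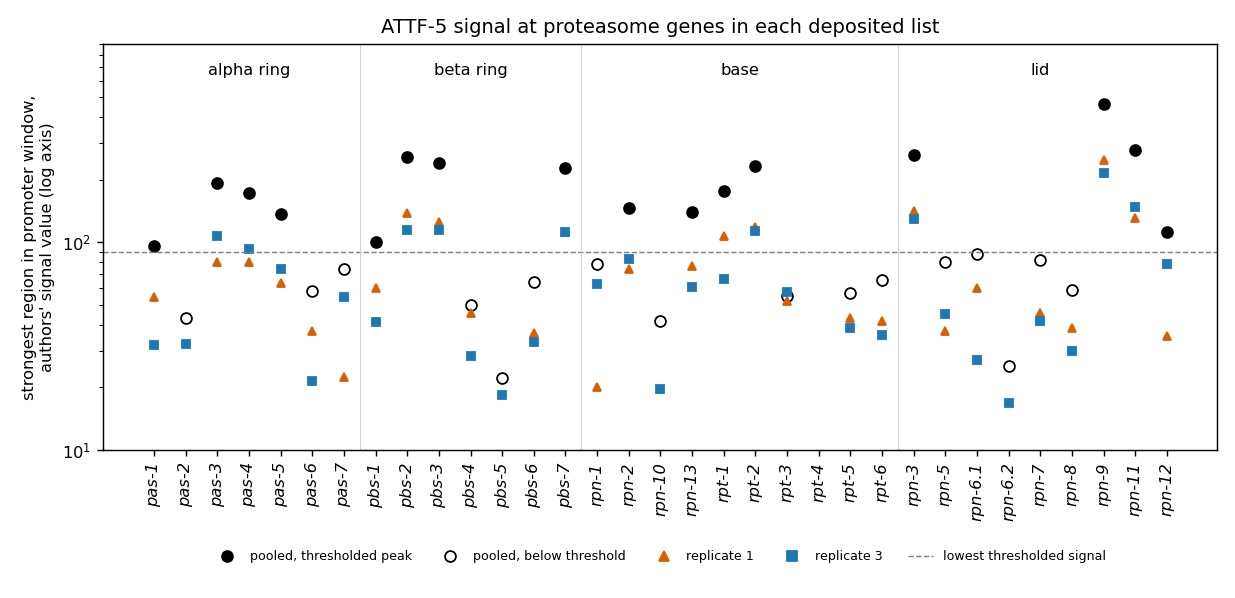
Signal value (log axis) of the strongest region in each member's promoter window, by subcomplex, in the pooled list (circles, filled for thresholded peaks), replicate 1 (triangles) and replicate 3 (squares); the dashed line is the lowest thresholded signal, 89.6. The 16 filled circles run from 95.3 at pas-1 to 462.5 at rpn-9, and rpt-4 has no region in any list.

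All 16 peaks had a summit within 100 bp in both replicate lists, and also within 50 bp. By the authors' notes the thresholded list was made from the pooled and replicate lists by reproducibility. Its regions were exactly the 3331 strongest of the pooled list. A summit in both replicate lists was present at 96.5% of all promoter peaks, so this is a description. Summits of replicate 1 lay a median of 4.5 bp from the pooled summit (at most 20 bp) and those of replicate 3 a median of 16.5 bp (at most 47 bp). On a log2 scale, replicate 1 over replicate 3 had a median of 0.091 (SD 0.466) across the 16 member peaks and of 0.095 (SD 0.497) across all promoter peaks. Of the 16, 12 lay within 1 SD of the promoter median; the other 4 were rpn-12, pas-1, rpt-1 and pas-3. Among the 3331 strongest regions of each replicate taken alone, 13 of the 16 genes had a summit in both, as did 79% of all genes with a thresholded summit. Over all 33 members the count was 17 in replicate 3 alone, against 12.4% of all genes, and 17 in replicate 1 alone, against 11.8%.

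**Figure D3:**
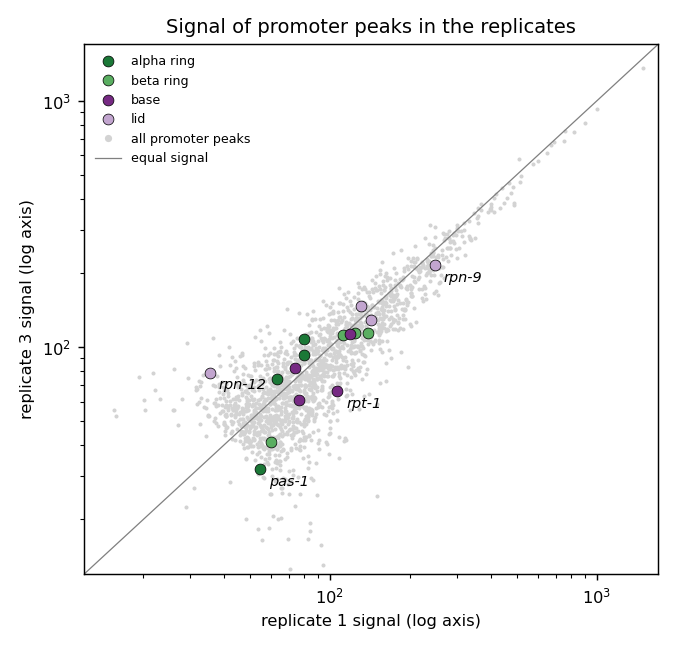
Signal in replicate 1 against replicate 3 (both log axes) for all promoter peaks found in both replicates (grey) and the 16 member peaks (coloured by subcomplex); the line marks equal signal. The members lie within the cloud, with rpn-9 highest and rpn-12 farthest to the replicate 3 side at a log2 ratio of -1.15.

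Summits lay close upstream of the genes. The median offset of the 16 strongest summits was -188 bp, from -789 bp at pas-1 to -1 bp at rpn-11, and 13 of 16 fell between the quartiles of all promoter peaks (-351 and -100 bp, median -195 bp). Of the 16, 15 lay in intergenic sequence, and that of pbs-3 in the 3′ untranslated exon of ulp-2, which ends 23 bp before pbs-3. The annotated 5′ end was within 10 bp of the start codon at 22 of the 33 members, with a median of 5 bp. Worm transcripts are often trans-spliced, so such an end need not be where transcription starts.

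**Figure D4:**
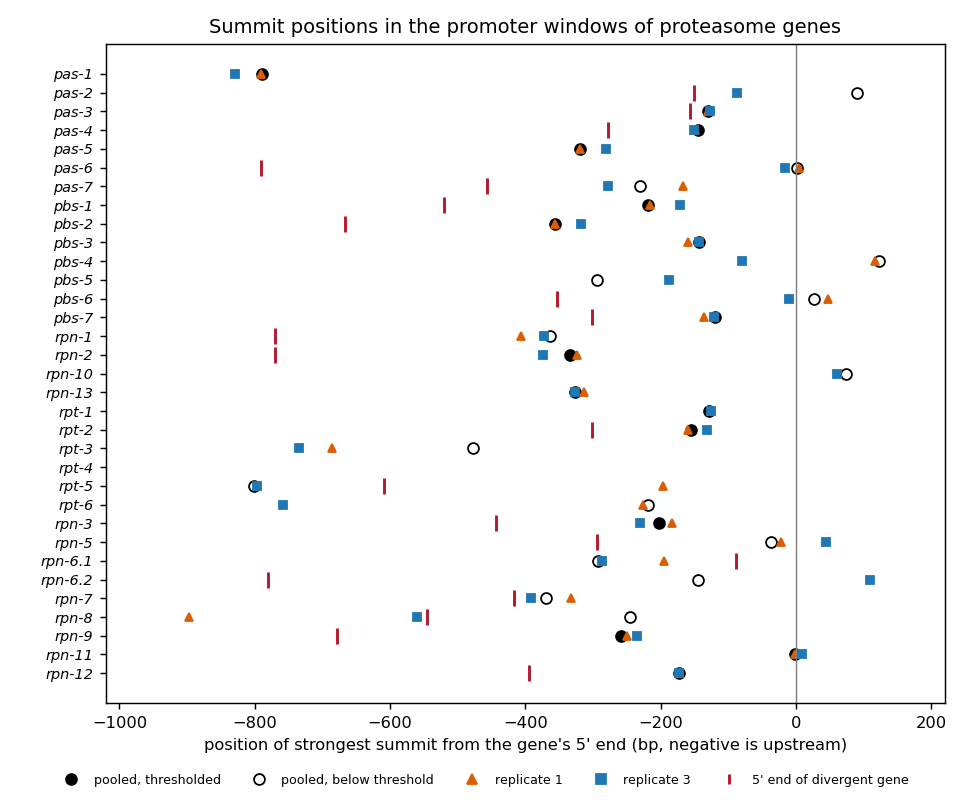
Position of the strongest summit in each promoter window from the gene's 5′ end (bp, negative upstream) in the pooled list (circles, filled where thresholded), replicate 1 (triangles) and replicate 3 (squares), with red ticks at the 5′ end of a divergent gene. Thresholded summits have a median of -188 bp, with replicate summits within 47 bp of them, and 5 of the pooled summits below the threshold lie past the 5′ end where no thresholded one does.

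Many proteasome genes share an intergenic region with a gene on the other strand. A divergent 5′ end lay within 1000 bp upstream at 21 of 33 members (63.6%), against 17.7% of all protein-coding genes. Of these 21, 10 had a peak (47.6%), where 29.6% of all divergent genes had one. Of the 8 members that instead followed a same-strand gene within 1000 bp, 5 had a peak (62.5%), where 8.5% of all such genes had one. Of the 4 with neither neighbour 1 had a peak, pas-5, where 8.64% of such genes did. The share with a peak was thus above the background of the same neighbourhood in each class, over few members.

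A shared region means that a peak cannot be given to a single gene. In all 10 divergent pairs the partner's window held the same summit. The partners were use-1 (with pas-3), rpb-3, an RNA polymerase II subunit gene (with pas-4), K08D12.3 (with pbs-1), the translation factor gene eif-6 (with pbs-2), F39H11.1 (with pbs-7), C23G10.7 (with rpn-2), the chaperone gene hsp-110 (with rpn-3), T06D8.9 (with rpn-9), rad-23 (with rpn-12) and the clathrin adaptor gene aps-1 (with rpt-2). The rpn-12 and rad-23 pair is within the proteasome pathway, as RAD-23 carries ubiquitinated proteins to the proteasome. Including pas-1 with rpoa-12, 11 of the 16 peaks lay in another gene's window. Of all promoter peaks, each counted once, 34.0% lay in several windows. These shares have unlike bases, since member peaks were found through genes and a shared peak can be reached through each of its genes. The member's own 5′ end was the nearest for 11 of 16. It was not for pas-1, pas-3, pas-4, pbs-2 and rpt-2, so under assignment to the nearest end alone the core count fell to 4 of 14 and the regulatory count to 7 of 19, where 11.6% of all genes had a peak by that rule.

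Sequence at the summits was read from the WBcel235 assembly as held by RefSeq, 50 bp on either side and on the gene's strand. The 5-mer GTCAT, the core of the letters that SKN-1 is known to bind, was found on either strand in 8 of the 16 member windows (50%) and in 14.1% of all promoter peaks. It was also present at 4 of the 16 pooled summits below the threshold (pbs-6, rpn-1, rpn-6.1 and rpn-7). To show where the letters lie, 6 of these 8 are printed first, with GTCAT or its reverse complement ATGAC in capitals.
rpn-11 (chrII:4044497-4044597, minus strand): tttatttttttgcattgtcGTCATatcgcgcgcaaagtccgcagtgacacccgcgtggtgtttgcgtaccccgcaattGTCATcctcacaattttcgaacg
rpn-12 (chrII:11652901-11653001, plus strand): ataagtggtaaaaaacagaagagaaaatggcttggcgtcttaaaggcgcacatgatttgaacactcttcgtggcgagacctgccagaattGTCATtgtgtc
rpt-2 (chrV:6017774-6017874, minus strand): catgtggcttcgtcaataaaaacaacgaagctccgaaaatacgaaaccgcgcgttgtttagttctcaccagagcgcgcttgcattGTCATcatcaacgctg
rpn-2 (chrIII:6198800-6198900, plus strand): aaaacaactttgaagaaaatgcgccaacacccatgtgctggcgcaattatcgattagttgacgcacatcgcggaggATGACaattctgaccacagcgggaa
pas-1 (chrV:14423357-14423457, minus strand): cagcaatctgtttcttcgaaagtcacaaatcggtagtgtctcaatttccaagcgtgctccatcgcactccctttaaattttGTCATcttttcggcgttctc
rpn-13 (chrIII:6342205-6342305, minus strand): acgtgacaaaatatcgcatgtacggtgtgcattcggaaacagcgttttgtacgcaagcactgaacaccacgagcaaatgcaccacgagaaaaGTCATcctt
Shown next, for contrast, are the peaks of rpn-9 (lid) and pbs-3 (beta ring), which are strong and lack the 5-mer, and the strongest member region below the threshold, rpn-6.1, which has the 5-mer 2 times.
rpn-9 (chrII:11239127-11239227, minus strand): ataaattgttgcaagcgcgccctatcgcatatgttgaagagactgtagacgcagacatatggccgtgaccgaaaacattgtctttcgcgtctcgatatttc
pbs-3 (chrII:4955520-4955620, minus strand): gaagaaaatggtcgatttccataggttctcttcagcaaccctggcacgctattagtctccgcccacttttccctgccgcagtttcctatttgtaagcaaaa
rpn-6.1 (chrIII:6962244-6962344, minus strand): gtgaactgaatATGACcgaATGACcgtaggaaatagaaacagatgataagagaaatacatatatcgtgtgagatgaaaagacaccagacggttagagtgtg

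Most matches lay on 1 side of the summit. Of the 9 matches in the 8 windows (rpn-11 has 2), 8 lay on the gene side of the summit, with centres 17 bp (pas-3) to 44 bp (rpn-13) downstream of it, and 1 of the rpn-11 matches lay 29 bp upstream. The windows reached only 50 bp from the summit, which bounds these distances. From the gene's 5′ end the centres ran from -756 bp (pas-1) to 29 bp (rpn-11). At the divergent genes pas-3, pbs-7, rpn-2, rpn-12 and rpt-2, side and strand depend on which gene of the pair is taken. Over all promoter peaks, 53.3% of 289 matches were downstream. In 7 of the 9 the letters GTCAT read along the gene's strand; pbs-7 and rpn-2 had the reverse. The longer TTGTCAT was present at 5 of the 16 member summits (31.2%) and at 2.17% of all promoter peaks. Those 5 were pas-1, rpn-2, rpn-11, rpn-12 and rpt-2. It was picked after these sequences were seen, so its share among them is not an independent count. It was also present at the pooled summits of pbs-6 and rpn-7, which are below the threshold. In the 300 bases from 250 bp upstream to 50 bp downstream of the 5′ end, GTCAT was found in 12 of 16 members with a peak, 7 of 17 without, and 39.5% of all protein-coding genes. Among all 2461 genes with a peak the share was 36%, not above that of all genes. In the same bases TTGTCAT was found in 5 of 16 members with a peak, 3 of 17 without, and 7.01% of all protein-coding genes. Its share among all genes with a peak was 6.54%. Such matches describe the letters in these windows and show nothing about whether SKN-1 was bound.

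The other motifs searched were common. The palindrome AATT was in 12 of 16 member summit windows (75%) and 51.3% of all promoter peaks, and in 300-base promoters it was nearly universal (all 33 members, 97.1% of all genes). A run of 6 A on either strand was in 4 of 16 summit windows (25%) against 26.6%.

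AT-hooks are known to bind the minor groove of AT-rich DNA, but the summits themselves were not rich in A and T. AT content within 50 bp of the summit had a median of 54.0% over the 16 member peaks (45.5% at pas-5 to 67.3% at pbs-2), 53.5% over all promoter peaks, and was 64.6% in the nuclear genome. The bins beside the member summits were richer. From 100 to 51 bp upstream of the summit AT content was 75% ± 2.21 (SEM, 16 peaks) against 61.7% ± 0.27 over all promoter peaks, and from 50 to 99 bp downstream it was 71.1% ± 2.07 against 62.1% ± 0.27. Farther downstream the order turned: from 200 to 249 bp the members had 57.25% ± 2.32 against 63.92% ± 0.25, and from 450 to 499 bp 55.12% ± 2.21 against 63.05% ± 0.25. These standard errors give the precision of each mean, which depends on the number of peaks. They are not the spread among peaks, and peaks are not replicates. With the window widened to 100 bp on either side, the members' median was 64.4%. No value at that width is given for all promoter peaks, so this is not a comparison.

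**Figure D5:**
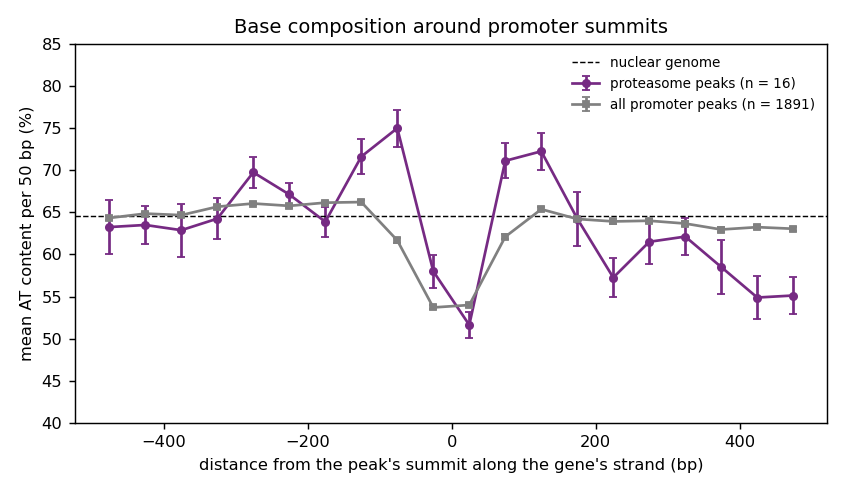
Mean AT content per 50 bp bin (%) along the gene's strand around the summit for the 16 proteasome peaks (purple) and all 1891 promoter peaks (grey); bars are SEM over peaks and the dashed line is the nuclear genome (64.6%). Both sets dip at the summit, and the proteasome peaks have shoulders of 75% and 71.1% beside the dip where all promoter peaks have 61.7% and 62.1%, and fall below all promoter peaks from 200 bp downstream onward.

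The other 17 members had no thresholded peak: pas-2, pas-6, pas-7, pbs-4, pbs-5, pbs-6, rpn-1, rpn-5, rpn-6.1, rpn-6.2, rpn-7, rpn-8, rpn-10, rpt-3, rpt-4, rpt-5 and rpt-6. All but rpt-4 had a weaker pooled region in the window, so 32 of 33 members had some pooled region, against 38.6% of all genes. Summits of both replicate lists were present in the window at 28 of 33, against 28.6% of genes. This count does not require the summits to lie at the same site. At rpt-5 the strongest lay at -196 bp in replicate 1 and at -796 bp in replicate 3. Pooled signals of the 16 ran from 22.1 to 87.2 with a median of 58.5, against 38.2 over the 5248 genes with only weaker regions, and 14 of the 16 were above that median. These lists hold background by their label, so such a region is not a peak.

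The threshold fell inside a graded series. Just above it stood pas-1 at 95.3, and just below it rpn-6.1 at 87.2, the gene of a lid subunit whose level is linked to longevity in worms. At rpn-6.1 replicate 1 gave 60.0 and replicate 3 gave 27.0, so it was among the 3331 strongest regions of replicate 1 but not of replicate 3. The lid genes rpn-7 (82.1 pooled, 45.6 in replicate 1 and 41.5 in replicate 3) and rpn-5 (80.6, 37.4 and 44.9) came next. The scaffold gene rpn-1 had 78.7 pooled, with 20.04 in replicate 1 and 62.7 in replicate 3, and pas-7 had 74.3, with 22.4 and 54.3; both were among the strongest regions of replicate 3 alone. Among the 6662 strongest pooled regions, 2 times as many as the thresholded list, 26 of 33 members had a summit, against 18.8% of all genes.

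The weakest members differed from these. The gene rpn-6.2, which has the same RPN-6 name as rpn-6.1, had 25.3 pooled, 16.8 in replicate 3 and no region in replicate 1, and pbs-5 had 22.1 pooled, 18.3 in replicate 3 and none in replicate 1. The ATPase gene rpt-4 had no region in the window in any list; its nearest thresholded summit lay at -4754 bp. The ATPase gene rpt-3 showed how the lists can differ: its strongest region was 52.1 at -685 bp in replicate 1 and 57.6 at -734 bp in replicate 3, both among the strongest 3331 of their lists, but the strongest pooled region was 55.0 at -477 bp.

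Some members without a peak had one nearby. The ubiquitin receptor gene rpn-10 lies 119 bp after mrpl-9 on the same strand, and a peak of 147.3 lay at -144 bp from mrpl-9 and -1386 bp from rpn-10. For pbs-5, a peak of 134.1 lay at -1167 bp, in an intron of the preceding gene K05C4.2. For pbs-6 a peak of 101 lay 1053 bp downstream, beside C02F5.12. Those were the 3 members without a peak that had a thresholded summit within 2000 bp.

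By chromosome, 5 of 10 members had a peak on I, 4 of 7 on II, 3 of 8 on III, 1 of 3 on IV and 3 of 5 on V, and none lay on X. The background was 18.2% of genes on I, 12.3% on II, 18.3% on III, 11.8% on IV and 8.13% on V.

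A list of 19 genes linked to the proteasome held genes of its partners, ubiquitin genes and genes of the SKN-1 pathway. It was chosen with earlier results of these data known. Of these 19, 12 had a peak (63.2%), against 12.3% of all protein-coding genes. The rad-23 peak among them is the rpn-12 peak counted above. The highest were cdc-48.1, the gene of the p97 segregase that hands substrates to the proteasome (1565 pooled, 819.9 in replicate 1 and 744.1 in replicate 3), and ecps-1, named for the proteasome scaffold ECM29 (920.7, 485.5 and 448.2). Both exceeded every subunit gene. The shuttle factor gene ubql-1 had 316.8, the ubiquitin gene ubq-2 had 312.7 with frg-1 as the nearest gene, and the deubiquitinase genes ubh-4 and usp-14 had 289.8 and 208.2. Of the p97 cofactors ufd-1 had 91.8, while npl-4.1 and npl-4.2 had no pooled region. The others with a peak were aip-1 (249.6), wdr-23 (223.9), ddi-1 (121.6), cdc-48.2 (121.3) and rad-23 (112.4).

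The SKN-1 pathway was mixed. In worms DDI-1 is known to cleave and PNG-1 to deglycosylate SKN-1A, and WDR-23 to restrain SKN-1. The genes ddi-1 and wdr-23 had peaks, skn-1 itself had only a region of 56.8 below the threshold, and png-1 had none. The polyubiquitin gene ubq-1 had 63.8, psmd-9 had 30.6 and dss-1 had none.

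Complexes related to the lid in architecture were set beside it. Of 6 COP9 signalosome genes 1 had a peak (16.7%), which is near the 12.3% of all protein-coding genes; it was csn-1 (136.5), and the nearest 5′ end was that of phf-14. Of 11 eIF3 genes 6 had one (54.5%), with signals from 139.2 to 501.8. The nearest 5′ end was that of another gene at eif-3.D (R08D7.4) and eif-3.H (C41D11.3). The chaperonin CCT, not related to the lid, had 6 of 8 genes with a peak (75%) and the V-ATPase 10 of 20 (50%), against the same 12.3%. Shares as high as that of the proteasome (48.5%) were thus seen in other complexes. The medians of their peaks were 315.5 and 202.2. No test of a difference between complexes was made.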

How the data were processed

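ChIP-seq of tagged ATTF-5 gave 2 samples of 1 group. Per the deposited file notes, the authors made a region list per replicate from its alignments and a control, a pooled list from both and a thresholded list from all 3 by reproducibility; the peak caller is not given in the sources used here. Signal is the authors' deposited value per region. The deposited −log10 q was used for description only, and score and p columns held fill values.

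Here genes of Ensembl release 115 (WBcel235, the sequence of ce11) were called when a summit fell between 1000 bp before and 200 bp after the 5′ end. A replicate summit was matched within 100 bp. No chance test was made; counts are read against all protein-coding genes. Signals have no counts behind them here, so no intervals are given. The window step was tested on simulated data. Members and lists were chosen with earlier results of these data known; The 1000 bp limit for divergent genes, the split into base and lid, the AT profile, TTGTCAT, the sequences printed, 2 times as many pooled regions, RefSeq ends, and the percentile and AT values per replicate were chosen after the data were seen. Capitals mark GTCAT, of 3 motifs searched first, since its letters were seen in the sequences. All members are named. Of 20 symbols of associated genes, 19 were found. Python 3.11.15 and numpy 2.4.6 were used. Alternatives changed the peak list, the window, the gene end, the overlap and the AT window, or left out a replicate.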

Additional observations from a re-analysis of the deposited data

How the results depend on the processing

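Of the 12 alternatives to the calls, 7 members with a peak kept it under all (pbs-3, pbs-7, rpn-2, rpn-3, rpn-9, rpn-11 and rpt-1) and 4 without a peak had none under any (pas-2, pbs-4, rpn-6.2 and rpt-4). Several alternatives could change calls in 1 direction only. The doubled list, the longer window, any transcript start and any base of the peak could not remove a peak. The shorter window, signal above the median and dropping summits near a stronger one could not add a peak. The proteasome count of 16 lay between 11 and 18 under all but the doubled pooled list, where it was 26, with 15 regulatory genes and 18.8% of all genes. With peaks of signal above the median it was 11, with 5 core genes and 7.43% of all genes, and with the nearest 5′ end it was 11, with 4 core genes and 11.6% of all genes. Without a replicate it was 17 each time (12.4% of all genes without replicate 1, 11.8% without replicate 3), 10 regulatory genes without replicate 1 and 9 without replicate 3. The strongest pooled regions gave the same calls because they are the thresholded list. The median offset was -178 bp without replicate 3 and -172.5 bp without replicate 1. The median percentile was 67.3 among all thresholded peaks. AT content was 54.5% without either replicate and 64.4% within 100 bp; the cause was not tested. No paired analysis was possible because there was 1 group. Depth is not known, so regions near the threshold are the least firm.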
